A study of Neurospora crassa with 12 samples.

Results

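The genes described here are those whose expression in *Neurospora crassa* went up at each step from polar growth to branching and did not go down before it. They numbered 255 of the 10592 genes in the deposited table (2.41%). A gene was taken when its mean expression at 15 min was at most that at 120 min, its mean went up from 120 to 240 min and again from 240 to 360 min, its 360 min mean was at least 2 times its 120 min mean, and its 360 min mean was at least 5 CPM (counts of the gene per 1000000 counts in the library). The 177 genes of the secondary metabolism clusters (SMCs) listed by the study were left out, and with them kept in the number would have been 260. The genes were thus chosen by the mean CPM of all 12 libraries at all 4 stages, so every difference between stages given for these genes is a description of values that chose them and not a test.

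Conidia, the asexual spores, of the wild-type *mat A* strain FGSC2489 were spread on cellophane over potato dextrose agar (PDA) and grown at 25°C under constant light. Samples were taken at 15 min (fresh conidia), 120 min (start of polar growth), 240 min (elongating germ tubes) and 360 min (first hyphal branches), with 3 replicates at each stage. All 4 groups share the strain, the medium, the temperature and the light. The labels tell the groups apart only by the time after inoculation and do not say whether libraries shared a culture or a day. A sampling time was set by microscopy, when most conidia were at the stage, so that a library may hold some cells of other stages. Per the methods of the study, a biological replicate pooled the tissue of multiple plates from 1 collection process.

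A germinating conidium of *N. crassa* leaves its dormant state, swells, and pushes out a germ tube that elongates at its tip. Germ tubes can find one another and fuse by short bridges, older hyphae fuse and branch behind the tip, and cross walls with a central pore divide the hypha into compartments. Woronin bodies, dense organelles that derive from peroxisomes, plug that pore when a hypha is cut. Tip growth needs a steady supply of cell wall polysaccharides and secreted proteins.

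The 12 libraries held 51555784 to 84946272 counts, so that a gene with a count of 0 could have had up to 3 counts, or 0.0353 to 0.0582 CPM. These limits cover counting error only. The share of counts in ribosomal RNA genes lay between 1.98 and 11.7%, highest in 360 min replicate 3 and next highest in 15 min replicate 2 (10.2%). Symbols were held by 30 of the 255 genes (11.8%, against 10.6% of all genes). The other 225 carry only a locus number, so that for most of these genes expression can be described but not function.

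The median CPM of the 255 genes over the 4 stages, in their order, was 3.93, 9.71, 14.7 and 31.3. Their share of all counts was 0.259% ± 0.0110 at 15 min and 0.692% ± 0.0369 at 120 min, and then grew to 1.08% ± 0.0419 and 1.87% ± 0.0758 at the later stages (mean ± SD, n = 3). The gene *hex-1* alone held 12.8% of their counts at 360 min. Without it the share went from 0.249% at 15 min to 1.63% at 360 min. Libraries are bulk samples, so that a change in the share of cells at a stage and a change in the RNA of each cell cannot be told apart.

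**Figure D1:**
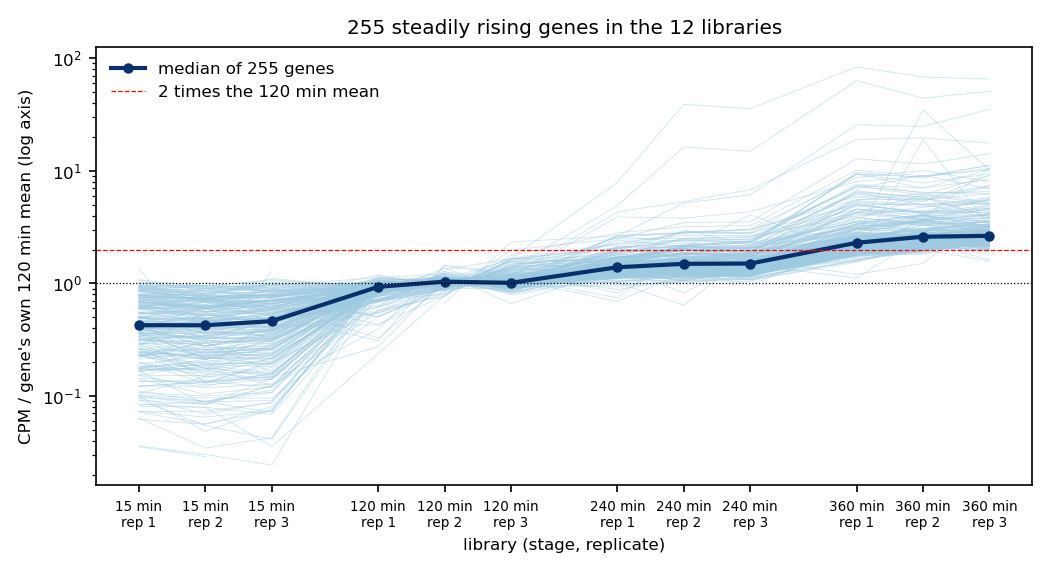
CPM of each of the 255 genes divided by the gene's own mean at 120 min (y, log axis) in the 12 libraries (x, stage and replicate). Thin lines are genes and break where a count was 0, dots are the median over the genes, the dotted line marks the 120 min mean and the dashed line 2 times that mean. The lines lie mostly below 1 at 15 min, spread around 1 at 120 min and run mostly above 2 at 360 min, with the steepest gene at 72.5 times its 120 min mean.

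Most of the genes had a modest ratio of 360 to 120 min. The ratio lay between 2 and 2.5 in 124 genes, between 2.5 and 3 in 51, between 3 and 4 in 31, between 4 and 8 in 36 and at 8 or above in 13. Its median was 2.52 and its highest value 72.5. Over the 8118 genes that edgeR tested the median ratio was 1.20. At 360 min 45 genes were above 100 CPM and 46 were under 10 CPM.

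Replicates of 1 stage overlapped little with those of the stage before. In 223 of the 255 genes (87.5%) all 3 libraries of 240 min lay above all 3 of 120 min, where the same held for 29.2% of the 8118 tested genes. All 3 libraries of 360 min lay above those of 240 min in 250 genes (98.0%), with a background of 47.3%, and above those of 120 min in 254, with a background of 48.7%. From 15 to 120 min there was no overlap in 215 genes, against a background of 45.7%. The genes without overlap at both steps after 120 min numbered 220 (86.3%, background 20.7%), and those without overlap at all 3 steps numbered 188 (73.7%, background 12.5%). Since the order of the means was part of the choice, nothing is read from these shares.

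All 255 genes passed the filter on low counts of edgeR, whose quasi-likelihood test compared stages over the 12 libraries with Benjamini-Hochberg adjustment at 0.05. Its calls are likewise a description for these genes. Expression was called higher in 214 genes from 15 to 120 min (background 43.1%), in 179 from 120 to 240 min (background 12.6%), in 239 from 240 to 360 min (background 20.7%) and in 254 from 120 to 360 min (background 29.6%). None was called lower in any of the 4 comparisons, where 39.6%, 9.73%, 21.1% and 27.1% of all tested genes were. The gene not called from 120 to 360 min, and the one whose libraries overlapped there, was the mitochondrial NCU16016.

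When 1 replicate is left aside, the rule takes a new set of genes, and that replicate gives values the new choice did not use. When the rule was applied to replicates 2 and 3 alone it took 301 genes. In replicate 1 the 4 stages of these genes stood in the order of the rule in 263 (87.4%), against 37.4% of all genes that had 5 CPM at 360 min. Their ratio of 360 to 120 min in replicate 1 was at least 2 in 200 (66.4%, against 6.45%), with a median of 2.27 against 1.18. Chosen without replicate 2, 246 of 261 genes (94.3%, against 31.1%) kept the order in replicate 2, and 198 (75.9%, against 7.27%) the ratio, with a median of 2.42 against 1.19. Chosen without replicate 3, 195 of 215 (90.7%, against 31.6%) kept the order in replicate 3, and 190 (88.4%, against 9.39%) the ratio, with a median of 2.64 against 1.19. The order was thus found more often than the ratio of 2 in the libraries left aside, and both more often than over all expressed genes. The labels do not say whether libraries of the same number share a culture or a day, and the replicate 1 libraries of 120, 240 and 360 min deviated from their stage means together, with r across genes from 0.11 to 0.17.

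The size of the rise depended on how libraries were scaled. TMM factors, which scale libraries to a common middle of the gene ratios, were 1.116, 1.174 and 1.125 for the 360 min libraries and 0.888 to 0.990 for the other 9. On library totals the median tested gene went up by 0.23 on the log2 scale from 240 to 360 min, and after TMM by 0.02. The median ratio of 360 to 120 min over the 255 genes was 2.52 on totals and 2.13 after TMM, and over all tested genes 1.20 and 1.02. All 255 genes kept the order of 120, 240 and 360 min after TMM, and the lowest ratio was 1.69. A ratio of at least 2 was left in 148, and 143 met the whole rule. At the first step 250 kept a 15 min mean at or below that of 120 min. Thus TMM changed no direction after 120 min in these genes, while 107 of them no longer reached the ratio of 2.

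**Figure D2:**
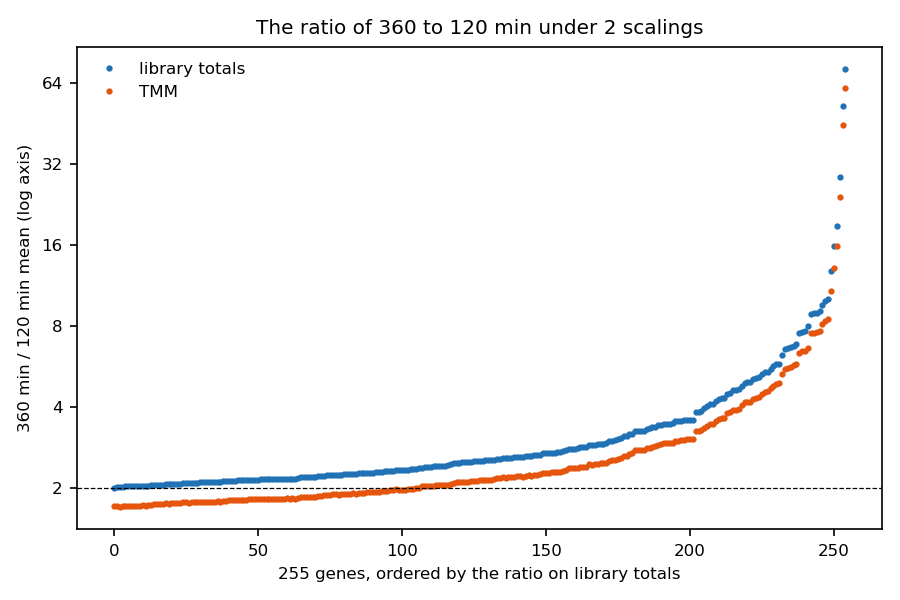
Ratio of the 360 min mean to the 120 min mean (y, log axis) of the 255 genes, ordered along x by the ratio on library totals. Blue dots are ratios on library totals and orange dots ratios after TMM scaling, and the dashed line marks 2. All 255 blue dots lie at or above the line, while 148 orange dots do, and the lowest orange dot is at 1.69.

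At the edges of the rule the genes inside and outside hardly differed. The lowest ratios inside were 2.004 for NCU10430, 2.005 for NCU08091 and 2.010 for *col-21*. NCU04413 and *gst-4* fell short of 2 by less than the last digit printed here (2.000), and NCU05275 had 1.999. The lowest 360 min means inside were 5.04 CPM for NCU11041, 5.09 for NCU09283 and 5.12 for NCU03636, and the nearest outside were 4.90 for NCU01196 and 4.82 for both NCU05244 and NCU07235. When each library was left out in turn, 187 of the 255 genes (73.3%) were taken in all 12 rounds. The library that mattered most was 360 min replicate 3, without which 40 genes were lost and 9 others came in. Without 360 min replicate 1, 2 genes were lost and 46 came in.

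The most abundant of the genes was *hex-1* (NCU08332, chromosome I, 5727235 to 5728917 of assembly NC12), which encodes the core protein of the Woronin body. It had 94.3, 83.8 and 105 CPM in the 3 libraries of 15 min, 905, 965 and 926 at 120 min, 1487, 1546 and 1566 at 240 min, and 2300, 2620 and 2255 at 360 min. No library of a stage overlapped with those of the stage before. Its expression was 9.88-fold higher at 120 than at 15 min and 2.57-fold higher at 360 than at 120 min, or 2.17-fold after TMM. The annotated span of *hex-1* shares 392 bases with that of NCU16405, another of the 255 genes, and the sources used here do not say how reads in the shared stretch were divided. NCU16405 had 44.2, 44.5 and 46.6 CPM at 15 min and 269, 278 and 227 at 360 min, with a 360 min mean of 258 CPM beside 2391 CPM for *hex-1*.

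Of the 10 genes listed for septation and the Woronin body, *hex-1* was the only one taken. From 120 to 360 min 4 of the other 9 were called higher by edgeR and none lower (background 29.6% and 27.1%). They included *mob-1* (log2 fold change 0.60 ± 0.12 SE), *bud3* (0.36 ± 0.09) and *wsc* (0.27 ± 0.05), which acts in the sorting of Woronin bodies. Their ratios on library totals were 1.79, 1.52 and 1.42. All 10 were higher at 120 than at 15 min by edgeR (background 43.1%).

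Cell wall genes gave the second most abundant member. The gene *acw-9* (NCU06185, chromosome III, 1817033 to 1819468), for an anchored cell wall protein, had 114, 105 and 122 CPM at 15 min, 186, 221 and 274 at 120 min, 586, 636 and 638 at 240 min, and 1134, 1147 and 862 at 360 min. Its replicates did not overlap between stages, and the 360 min value of replicate 3 stood below the others. The ratio of 360 to 120 min was 4.61 (3.89 after TMM), and 65.7% of the rise on the log2 scale fell before 240 min. A second anchored cell wall protein gene, *acw-6* (NCU03530), had 111, 123 and 96.7 CPM at 120 min, 150, 152 and 153 at 240 min and 200, 248 and 275 at 360 min, with a ratio of 2.19.

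The chitin synthase gene *chs-3* (NCU04251) had 18.2, 18.8 and 19.6 CPM at 15 min, 48.3, 54.2 and 51.5 at 120 min, 76.6, 80.0 and 82.0 at 240 min, and 108, 127 and 129 at 360 min. On library totals its steps on the log2 scale after 120 min were nearly equal, at 0.63 and 0.61. Its ratio was 2.36 on totals and 1.99 after TMM. Over the 255 genes TMM lowered the median log2 step from 240 to 360 min from 0.85 to 0.65. The median step from 120 to 240 min went only from 0.54 to 0.51, so that equal steps depend on the scaling. Other chitin synthase genes had smaller ratios. That of *chs-1* was 1.43, that of *chs-4* 1.50 and that of *chs-5* 1.39, and edgeR called each of them higher from 120 to 360 min. *chs-6* stayed under 1 CPM at all stages.

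Over the whole list of 36 genes for cell wall synthesis and cell wall proteins, 23 were called higher and 2 lower from 120 to 360 min (background 29.6% and 27.1%), with a median log2 fold change of 0.30. The 3 members account for 3 of the 23. *acw-4* had a ratio of 5.82 and *ncw-1*, a nonanchored cell wall protein gene, one of 9.35, both above that of *acw-9*, but their means at 15 min (22.5 and 7.50 CPM) were above those at 120 min (0.928 and 2.67 CPM), so the rule did not take them. *acw-10* (ratio 7.30) belongs to the SMC genes that were left out.

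Secreted enzymes that act on polysaccharides gave 4 genes of 89 listed. *gh16-1* (NCU01353), of a glycoside hydrolase family that holds glucan-cleaving and glucan-transferring enzymes, had 3.11, 2.53 and 3.48 CPM at 15 min, 5.15, 6.12 and 5.49 at 120 min, 15.0, 15.6 and 17.0 at 240 min, and 48.8, 56.3 and 44.9 at 360 min. Its ratio of 8.95 (7.56 after TMM) was the largest among the 30 of the 255 genes that have a symbol, and its log2 steps of 1.51 and 1.65 were among the most even. *gh76-5* (NCU09937), of a mannan-active family, had a ratio of 2.44, with 42.9, 37.2 and 37.2 CPM at 360 min. The lytic polysaccharide monooxygenase genes *gh61-9* and *gh61-2* reached 17.6 ± 1.15 and 8.93 ± 0.525 CPM at 360 min, with ratios of 2.22 and 2.47. Of the 70 other tested genes of the list, 21 were called higher and 4 lower from 120 to 360 min (background 29.6% and 27.1%). The share called higher was thus near that of all tested genes.

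The third most abundant gene was *grp78* (NCU03982), for the Hsp70 chaperone of the endoplasmic reticulum. It had 37.0, 34.4 and 36.9 CPM at 15 min, 340, 353 and 334 at 120 min, 501, 540 and 533 at 240 min and 675, 729 and 675 at 360 min. On the log2 scale most of its rise came first, with 9.49-fold from 15 to 120 min. Its ratio of 360 to 120 min, 2.02, lay near the edge of the rule and dropped below 2 without 120 min replicate 3 or 360 min replicate 2, at 1.97 in the lower case. It was 1.71 after TMM. No other of the 24 genes of the stress response list was taken.

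Polarity and cytoskeleton genes gave 4 members of 43. *rac-1* (NCU02160), which acts in polar growth, had 91.1, 82.4 and 90.4 CPM at 15 min, 107, 123 and 113 at 120 min, 133, 134 and 135 at 240 min, and 208, 224 and 266 at 360 min. Of its rise after 120 min 22% fell before 240 min. *spa2* (NCU03115), a component of the polarisome at the hyphal tip, had 29.8, 29.3 and 31.4 CPM at 120 min, 38.7, 37.4 and 39.4 at 240 min, and 57.7, 67.1 and 64.6 at 360 min, of which 33.0% fell before 240 min. Both had small first steps, of 1.3-fold each, and ratios of 2.03 and 2.09 that were below 2 after TMM (1.72 and 1.77).

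Both *hym-1* (NCU03576), an MO25-like scaffold protein gene, and *mob-2a* (NCU03314), a coactivator of the kinase COT-1, belong to the pathway of that kinase in hyphal elongation and branching. *hym-1* had 10, 11.4 and 10 CPM at 120 min, 11.7, 13.9 and 13.3 at 240 min and 20.7, 23.3 and 21.9 at 360 min, after 10.7, 9.46 and 10.3 at 15 min, so that the libraries of 15 and 120 min overlapped. *mob-2a* had wider spread than the other members of the list, with 21.4, 36.8 and 22.6 CPM at 120 min, 50.2, 37.0 and 56.8 at 240 min, and 49.5, 54.8 and 87.5 at 360 min. Its libraries of 240 and 360 min overlapped, and without 360 min replicate 3 the ratio of 2.37 became 1.94. *cot-1* itself had a ratio of 1.73 and *mob-2b* one of 1.35, while *pod-6*, for a kinase of the same pathway, had 1.17.

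Of the 39 other genes of the polarity list, 20 were called higher and none lower from 120 to 360 min (background 29.6% and 27.1%). The tropomyosin gene *tpm* came closest to the rule, with a ratio of 1.99 and 246, 295 and 489 CPM at 120, 240 and 360 min (means). The gene for actin, *act*, went from 126 CPM at 15 min to 1005 at 120 min and then to 1329 at 360 min, a ratio of 1.32.

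**Figure D3:**
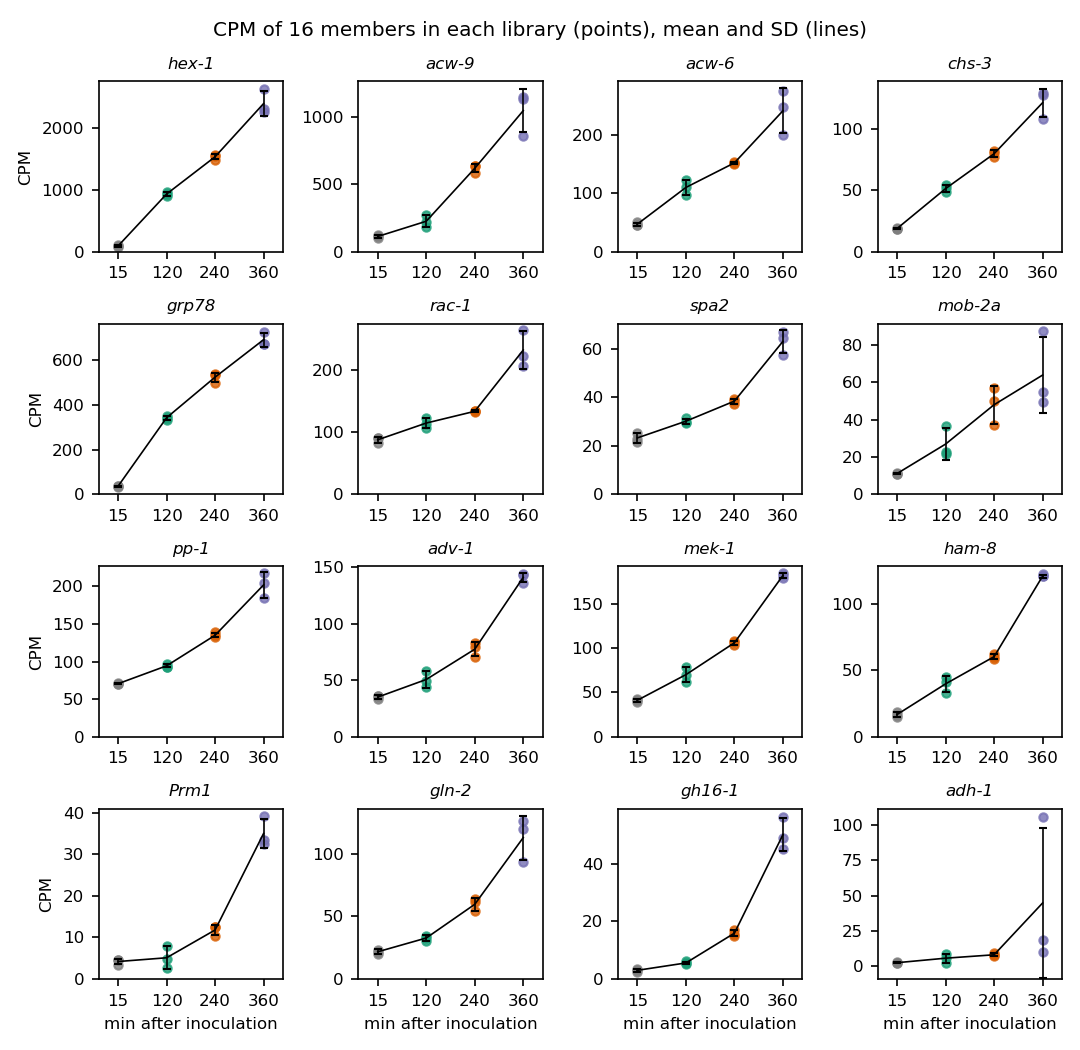
CPM (y, linear axis, a separate scale in each panel) of 16 of the 255 genes at 15, 120, 240 and 360 min after inoculation (x). Points are the 3 libraries of a stage and lines join the means with bars of 1 SD. Libraries of neighboring stages are separate in most panels, while those of *mob-2a* overlap at 240 and 360 min and *adh-1* is high in 1 library of 360 min only.

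Of the 22 gene lists, that for cell fusion and communication had the largest share among the 255 genes, with 5 of 22 genes (22.7%, against 2.41% of all genes). The 5 genes act at different levels. *pp-1* (NCU00340), a STE12-like transcription factor below the MAP kinase MAK-2, had 70.6, 70.1 and 70.9 CPM at 15 min, 96.6, 93.4 and 93.0 at 120 min, 133, 135 and 139 at 240 min, and 184, 218 and 205 at 360 min. *adv-1* (NCU07392), a zinc cluster transcription factor required for fusion, had 36.3, 32.9 and 35.9 CPM at 15 min, 43.9, 49.5 and 58.5 at 120 min, 70.6, 79.0 and 82.5 at 240 min, and 143, 136 and 144 at 360 min. The stages did not overlap for either gene, and the ratios were 2.15 for *pp-1* and 2.79 for *adv-1*.

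The MAP kinase kinase gene of the cell wall integrity pathway, *mek-1* (NCU06419), had 42.8, 39.0 and 41.6 CPM at 15 min, 61.2, 70.0 and 78.9 at 120 min, 103, 107 and 108 at 240 min, and 185, 183 and 179 at 360 min. *ham-8* (NCU02811), which is needed for hyphal fusion, had 16.5, 14.9 and 18.8 CPM at 15 min, 33.2, 41.1 and 45.1 at 120 min, 58.5, 62.2 and 60.3 at 240 min, and 123, 121 and 121 at 360 min. *Prm1* (NCU09337), which acts in the merger of the plasma membranes, is the fifth of the list by expression at 360 min and was named after its values were seen. It had 3.49, 4.61 and 4.57 CPM at 15 min, 2.56, 4.82 and 7.99 at 120 min, 10.4, 12.6 and 12.4 at 240 min, and 39.1, 32.5 and 33.5 at 360 min. The libraries of 360 min were thus close together in *mek-1* and *ham-8*, while those of 120 min differed by over 3-fold in *Prm1* and overlapped with 15 min, and without 120 min replicate 3 *Prm1* did not meet the rule. The ratios were 2.60 for *mek-1*, 3.05 for *ham-8* and 6.84 for *Prm1*.

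Among the 17 fusion genes that were not taken, 11 were called higher and none lower from 120 to 360 min (background 29.6% and 27.1%). From 120 to 240 min 10 were called higher (background 12.6%) and from 240 to 360 min 6 (background 20.7%). The median log2 fold change of all 22 from 120 to 360 min was 0.45, where that of all tested genes after TMM was 0.02. The other kinases of the 2 MAP kinase cascades had smaller ratios than *mek-1*, with 1.81 for *mak-1* and 1.80 for *mak-2*, 1.58 for *nrc-1*, 1.55 for *mek-2* and 1.32 for *mik-1*. edgeR did not call *mak-2* (adjusted p = 0.060) or *mik-1* (adjusted p = 0.086). The NADPH oxidase gene *nox-2* reached a ratio of 2.67 but was higher at 15 than at 120 min (12.6 and 8.12 CPM), and *so*, which works in signaling between fusing cells, stopped at 1.99. Whether any 2 genes of the list differed in their rise was not tested.

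**Figure D4:**
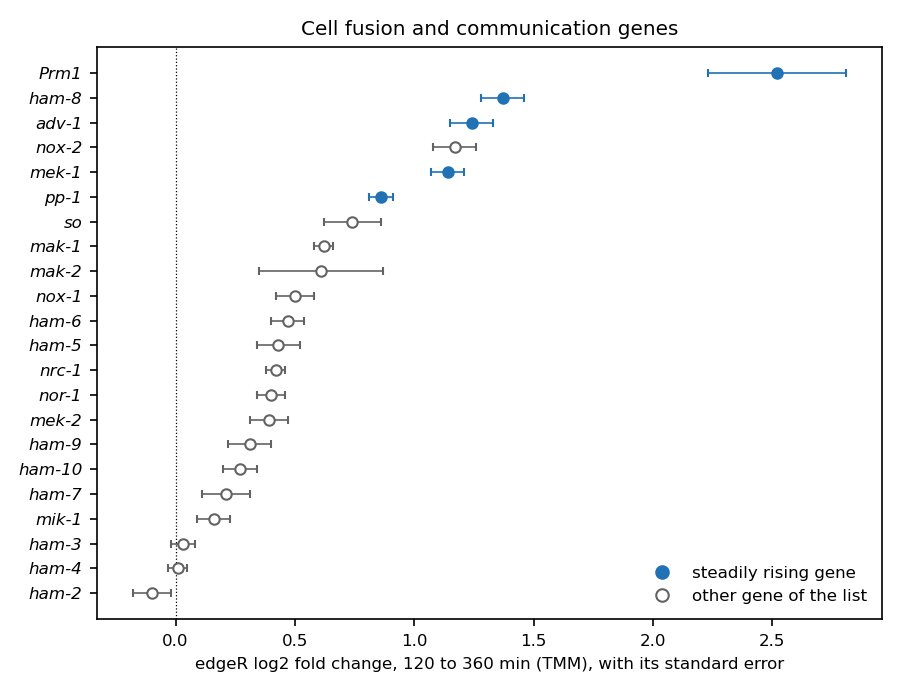
Log2 fold change from 120 to 360 min (x, from edgeR with TMM scaling) of the 22 genes listed for cell fusion and communication (y), with bars of 1 standard error over all 12 libraries. Filled points are the 5 genes taken by the rule and open points the other 17. The 5 lie between 0.86 and 2.52, with the open point of *nox-2* at 1.17 among them, and *ham-2* is lowest at -0.10.

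Among 59 genes listed as transcription factors, *ada-1* (NCU00499) and *col-21* (NCU03489) joined *pp-1* and *adv-1*. *ada-1* had 10.2, 11.3 and 10.3 CPM at 120 min, 21.9, 18.1 and 19.0 at 240 min and 35.8, 42.8 and 34.3 at 360 min, a ratio of 3.55. Its span overlaps that of NCU16460, which had means of 5.90, 26.5 and 57.8 CPM at these stages. The part of shared reads in the values of *ada-1* was not tested. *col-21* was low and at the edge of the rule, with 8.11 ± 0.642 CPM at 360 min and a ratio of 2.01 that fell below 2 without 120 min replicate 3, 360 min replicate 2 or 360 min replicate 3. Of the 54 other tested transcription factors, 16 were called higher and 15 lower from 120 to 360 min, near the background of 29.6% and 27.1%. Of 119 genes for kinases, phosphatases and G protein signaling, 2 were taken, which were *mek-1* and *pkac-2* (NCU00682), for a catalytic subunit of protein kinase A. *pkac-2* had 5.71, 6.29 and 5.27 CPM at 120 min and 12.9, 15.7 and 14.9 at 360 min, a ratio of 2.52.

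Metabolism and transport gave few named genes. *gln-2* (NCU04856), for glutamine synthetase, had 22, 19.8 and 23.5 CPM at 15 min, 30.6, 32.8 and 34.8 at 120 min, 54.2, 61.3 and 63.7 at 240 min, and 93.2, 120 and 126 at 360 min. On library totals its ratio was 3.45, with log2 steps of 0.87 and 0.92. It was the only member among the 64 amino acid synthesis genes, of which 46 of the other 63 were called lower and 6 higher from 120 to 360 min (background 27.1% and 29.6%). *tcu-3* (NCU07428), a copper transporter gene, had 16.6, 16.7 and 14.7 CPM at 120 min, 27.2, 33.2 and 33.3 at 240 min, and 48.3, 42.0 and 48.2 at 360 min, a ratio of 2.89. It was the only one of 29 genes for pumps and ion transporters.

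A single library carried much of the value of *adh-1* (NCU01754), for alcohol dehydrogenase. This gene had 2.39, 5.63 and 8.79 CPM at 120 min, 7.03, 9.08 and 7.94 at 240 min, and 9.73, 106 and 18.2 at 360 min. The 106 CPM of 360 min replicate 2 were 5.85 times the next library, and the ratio of 8.0 became 2.49 without it. The same library carried NCU16673, with 1.58, 21.0 and 6.09 CPM at 360 min, whose ratio of 15.9 was 6.36 without it. Without that library, or without 120 min replicate 1, NCU16673 did not meet the rule. Only 4 of the 255 genes had a 360 min library at least 2 times as high as the next, which were these 2 and the mitochondrial genes NCU16016 and NCU16017.

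Of the 22 genes listed for conidiation and the clock, *ccg-16* (NCU05495), a clock-controlled gene, was taken. It had 36.8, 33.7 and 36.1 CPM at 15 min, 48.9, 57.4 and 53.2 at 120 min, 84.9, 113 and 116 at 240 min, and 167, 157 and 195 at 360 min, a ratio of 3.25. Of the 22 genes, 19 were called lower and 1 higher from 15 to 120 min (background 39.6% and 43.1%), a step at which the rule took only genes that did not go down. Other clock or light genes of the list, *ccg-14* and *bli-3*, had ratios of 3.45 and 2.66 but started from higher means at 15 min.

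The remaining 5 members with a symbol were named after their values were seen. *fr* (NCU07483), whose frost mutant branches excessively, had 17.1, 18.3 and 17.0 CPM at 120 min, 24.9, 24 and 24.8 at 240 min, and 36.2, 41.3 and 35.7 at 360 min, a ratio of 2.16. *fdh* (NCU03813), for formate dehydrogenase, had 5.40, 4.78 and 5.36 CPM at 120 min, 7.44, 11.7 and 12.2 at 240 min, and 38.2, 36.8 and 43.2 at 360 min. At 7.61 its ratio was over 3 times that of *fr*. *egt-1* (NCU04343), which acts in ergothioneine synthesis, *mig-10* (NCU04791) and *scp* (NCU00831) had ratios of 2.23, 2.05 and 2.14. In *scp* the 360 min libraries differed, with 89.1, 62.6 and 49.7 CPM, and the ratio was 1.79 without replicate 1.

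The 7 most abundant genes without a symbol ran at levels of the same order as the named ones. NCU04127 had 193, 226 and 221 CPM at 120 min and 394, 457 and 520 at 360 min. NCU04951 had 128, 153 and 148 CPM at 120 min and 431, 419 and 511 at 360 min. On library totals its log2 steps were nearly equal, at 0.83 and 0.84. The other 5 of the 10 genes highest at 360 min were NCU06003, NCU06702, NCU05974, NCU00935 and NCU01824, with means of 403, 386, 378, 373 and 312 CPM. Their ratios were 2.1, 2.08, 2.48, 2.47 and 3.32. Counts grow with the length of a gene, so that levels are compared per kb of annotated span. There *hex-1* stood at 1421 CPM per kb at 360 min, NCU04127 at 454, NCU04951 at 447, *acw-9* at 430 and *grp78* at 233, so that NCU04127 and NCU04951, which are short, stood beside *acw-9* on this scale.

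The largest ratios belonged to genes with low expression at 120 min. NCU01212 had 0, 0.376 and 0.471 CPM at 120 min, 2.24, 11.0 and 10.1 at 240 min, and 23.7, 19.3 and 18.5 at 360 min, a ratio of 72.5. That ratio rests on a 120 min mean of 0.283 CPM and ran from 48.3 to 109 when 1 library was left out, and without 15 min replicate 2, 120 min replicate 2 or 120 min replicate 3 the gene did not meet the rule. NCU02884 had 0.864, 1.46 and 1.93 CPM at 120 min, 6.97, 23.1 and 21.2 at 240 min, and 90.0, 62.7 and 72.2 at 360 min, a ratio of 52.7. In both genes 240 min replicate 1 was well below the other 2 libraries of its stage. NCU09562 had 1.86, 6.12 and 15.5 CPM at 120 min and 100, 90.2 and 111 at 360 min, a ratio of 12.8, and a mean of 0.511 CPM at 15 min, which made it the gene with the largest ratio of 360 to 15 min (197). The ratio of 12.8 was 25.2 without 120 min replicate 3, and 9.29 at the lowest when other single libraries were left out.

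Ratios between 8 and 11 were held by several genes of similar path. NCU01380 went from 3.33, 6.02 and 13.8 CPM at 120 min to 78.0, 69.6 and 86.0 at 360 min, with log2 steps of 1.62 and 1.71. Without 120 min replicate 3 its ratio of 10.1 was 16.7, and its 15 min mean was then above that of 120 min, so that it did not meet the rule. NCU11172 went from 1.37, 5.44 and 8.22 CPM to 46.9, 44.1 and 52.7, and NCU05798 from 0.820, 1.06 and 1.72 to 11.6, 10.5 and 13.5. NCU08169 had the narrowest spread of this group at 120 min, with 5.04, 6.33 and 7.03 CPM, and 49.2, 55.0 and 62.6 at 360 min. NCU09193 and NCU05915 had ratios of 8.90 and 8.88, with 19.2 ± 3.71 and 9.76 ± 1.02 CPM at 360 min. Without 120 min replicate 3 the ratio of NCU05915 was 13.4, and NCU09193 did not meet the rule.

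In these steep genes the 3 libraries of 120 min mostly stood in the same order. Of the 49 genes with a ratio of at least 4, 40 (81.6%) had their lowest 120 min value in replicate 1 and their highest in replicate 3, which was the case in 94 of all 255 genes (36.9%), in 49 of the 161 genes that were higher at 15 than at 120 min (30.4%) and in 14.8% of the tested genes. The highest 120 min library was at least 2 times the lowest in 23 of the 49 (46.9%), against 9.57% of the tested genes. Replicate 1 was lowest in 47 of the 49 at 120 min and in 44 at 240 min, while at 360 min the largest group, 22 of the 49, had replicate 2 lowest and replicate 3 highest. Over all 255 genes replicate 1 was lowest in 67.5% at 120 min, in 64.7% at 240 min and in 59.6% at 360 min, where the shares over the tested genes were 40.4%, 33.1% and 39.0%. The order of libraries within a stage was not used by the rule, but the stage means were.

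Genes differed in when the rise after 120 min took place. On library totals between 5.58 and 77.4% of the rise on the log2 scale fell before 240 min, with a median of 39.1%. The step from 240 to 360 min was the larger one in 202 genes (79.2%) on totals and in 169 (66.3%) after TMM. NCU01212 (77.4%), NCU09782 (72.0%), NCU07974 (69.6%) and NCU05132 (68.6%) had most of it early. NCU07974 had 25.2, 33.5 and 51.1 CPM at 120 min, 84.4, 97.8 and 97.2 at 240 min, and 167, 135 and 118 at 360 min.

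The latest rises were those of NCU08146 (5.58%), NCU02479 (5.83%), NCU07545 (6.48%) and NCU16673 (9.59%). None of these genes met the rule in all 12 rounds with 1 library left out. The late rise of NCU16673 came mostly from 360 min replicate 2. NCU08146 had 12.5, 13.6 and 11.7 CPM at 120 min, 12.3, 13 and 13.9 at 240 min, and 23.8, 25.3 and 28.3 at 360 min, so that its first 2 sets of libraries overlapped. By stage means on library totals, the most even rises among genes with a ratio of at least 4 were those of NCU16017, NCU01380, NCU08228, NCU09307 and *gh16-1*. Of these, NCU01380 and NCU09307 did not meet the rule without 120 min replicate 3. The libraries of NCU16017 overlapped at both steps, and its 360 min replicate 3 (48.5 CPM) stood far above the next library (17.2 CPM). The even steps of NCU16017 thus hold for its means only. NCU08228 had 2.92, 3.21 and 3.04 CPM at 120 min, 7.42, 6.52 and 6.41 at 240 min, and 11.5, 17.7 and 11.9 at 360 min. NCU09307 had 3.97, 5.16 and 8.37 CPM, then 11.1, 12.6 and 13.9, and then 30.4, 29.0 and 29.9.

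The first step, for which the rule asked only that expression was no lower at 120 than at 15 min, differed widely among the genes. Expression was at least 2-fold higher at 120 than at 15 min in 147 genes, at least 4-fold in 66 and at least 10-fold in 15, while it was under 1.25-fold higher in 33. The ratio of 120 to 15 min ran from 1.01 to 46.6 with a median of 2.34, against 1.08 over the tested genes. Among the most abundant genes, NCU01824 (14.1-fold), NCU06702 (10.8-fold), *hex-1* and *grp78* had most of their increase on the log2 scale in this first step. NCU05974 (1.23-fold), NCU06003 (1.49-fold) and NCU04951 (1.51-fold) had most of theirs later.

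A further 161 genes met the ratio and the level and went up at both later steps but were higher at 15 than at 120 min. Their median ratio of 360 to 120 min was 2.76, against 2.52 in the 255 genes, and the median steps were 1.46 and 1.91 against 1.46 and 1.81. Both sets were chosen by the same thresholds after 120 min and by opposite directions of the first step, so nothing is read from these medians. The median ratio of 120 to 15 min was 0.464 in the 161 genes. They held 5 of the 46 respiratory chain genes (*aod-1*, *nuo24*, *nuo30.4*, *nuo14.8* and *nuo11.6*). They also held 3 of the stress list (*sod-2*, *gst-3* and *gst-1*) and the light-response gene *vvd*. The 255 genes held 0, 1 and 0 of these lists. In other lists the 255 genes held more, such as cell fusion (5, against 1 of the 161 genes) and polarity (4, against 0). These lists are examples of either direction, without a share over all genes, so nothing is read from their counts. Another 7 genes met the ratio and the level but not the order at 240 min.

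**Figure D5:**
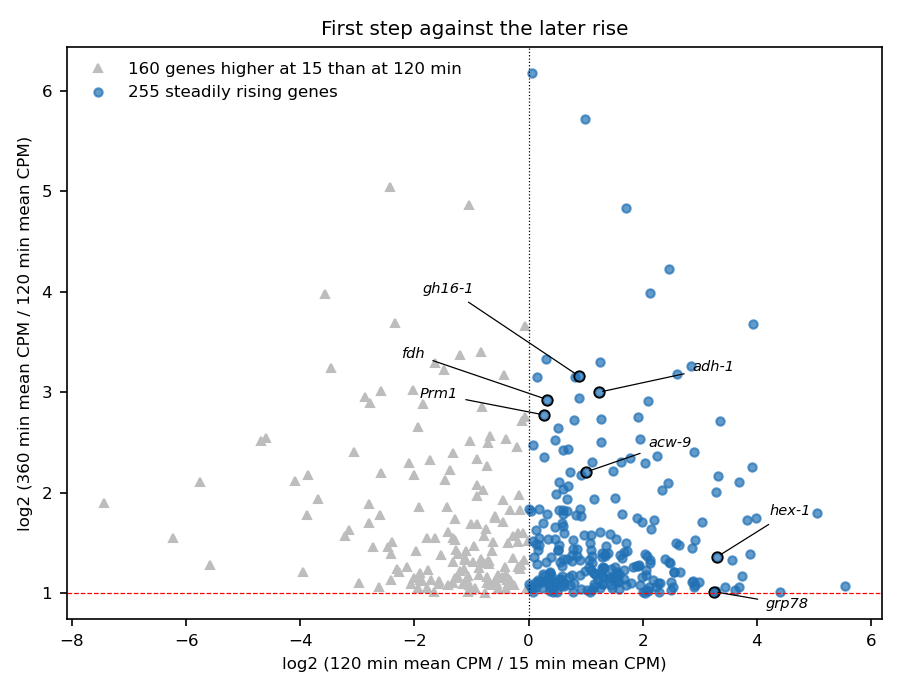
Log2 ratio of mean CPM from 15 to 120 min (x) and from 120 to 360 min (y) for the 255 genes (blue circles) and for 160 of the 161 genes that were higher at 15 than at 120 min (gray triangles, 1 with no count at 120 min left out). The dotted line marks no difference at the first step and the dashed line a ratio of 2, both set by the rule. Along y both sets are densest between 1 and 2, and the 255 genes reach 46.6-fold along x.

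Several lists held none of the 255 genes, which made up 2.41% of all genes. At that share a short list holds few or none, so nothing is read from these counts. There was 0 of 46 genes of the respiratory chain, 0 of 26 of mitochondrial protein import, 0 of 30 of the proteasome, 0 of 11 for ribosomal proteins and translation factors, 0 of 89 for histones, chromatin and DNA repair, 0 of 20 for peroxisome biogenesis and 0 of 12 nutrient transporters. The lists for heterokaryon incompatibility (6), light sensing and carotenoids (17), sexual development (17), and lipid and sterol synthesis (7) held none either. Peroxisome biogenesis, from which Woronin bodies derive, had 12 of 20 genes called higher and none lower from 120 to 360 min (background 29.6% and 27.1%), with a median log2 fold change of 0.28, so the ratio of 2 was not reached. In the proteasome list 23 of 30 were called lower and 1 higher over the same time (background 27.1% and 29.6%), and in the ribosomal list 10 of 11 were called lower.

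The labels of the stages can be set against marker genes. Of the markers planned, *ccg-7* (conidia) and the *spa* genes (growing hyphae), among them *spa2* of the 255 genes, are not in the sums below. The 9 markers of conidia and conidiating hyphae summed to 6030 to 6556 CPM in the libraries of 15 min, 618 to 674 at 120 min, 682 to 722 at 240 min and 1017 to 1199 at 360 min. The hydrophobin gene *eas* had a mean of 3754 CPM at 15 min and 5.72 at 360 min, *con-8* had 0.464 CPM at 360 min and *con-13* was at 0 in 2 of the 3 libraries of 360 min, while *ccg-6* (1074 CPM) made up most of the sum at 360 min. The 10 markers of sexual tissue summed to 169 to 194 CPM at 15 min and 9.80 to 10.7 at 360 min. The 4 markers of growing hyphae summed to 189 to 217 CPM at 15 min and 2617 to 3059 at 360 min, mostly through *hex-1*, which is one of the 255 genes. The other 3 markers (*so*, *chs-1* and *cot-1*), which are not, summed to 106 to 117 CPM at 15 min, 237 to 246 at 120 min, 307 to 317 at 240 min and 362 to 439 at 360 min. None of the conidial or sexual markers in these sums was among the 255 genes, and the part of either marker list in the values of the 255 genes was not tested.

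Position and length were not used by the rule. The 255 genes lay on all 7 chromosomes, with 64 on chromosome I (25.1%, against 26.3% of the genes with 5 CPM at 360 min), 25 on II (9.80% and 10.8%), 31 on III (12.2% and 13.1%), 25 on IV (9.80% and 14.3%), 49 on V (19.2% and 17.3%), 31 on VI (12.2% and 9.05%) and 28 on VII (11.0% and 9.06%). Their annotated spans ran from 785 to 9736 bases with a median of 2310, against 2519 over protein-coding genes with 5 CPM at 360 min and 2172 in the 161 genes that were higher at 15 min. Direct neighbors on the chromosome formed 12 pairs within the 255 and took in 24 genes (9.41%). In the 161 genes that were higher at 15 min they took in 4 genes (2.48%). Such a share depends on the size of the set, so nothing is read from the difference. In 3 of the 12 pairs the spans overlap. The libraries were strand-specific per the methods of the study. The strands of these genes were not examined here, so it is not known whether reads in the shared stretches could be told apart. Of the 255 genes 75 (29.4%) overlap with some other gene, against 1775 of the 5923 genes with 5 CPM at 360 min. Among the 75 are *hex-1*, *ada-1*, NCU01212 and NCU02884.

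Among the neighbors that do not overlap, NCU04698 and NCU04699 on chromosome VI (423573 to 425891 and 426227 to 428022) lie 335 bases apart, and NCU08193 and NCU08194 on chromosome III (4607735 to 4609300 and 4610804 to 4613436) lie 1503 bases apart. NCU03636 and NCU03637 on chromosome V are separated by 336 bases. NCU07423 and NCU07422 on chromosome I are separated by 16. Both genes of each pair followed the rule that chose them, so likeness of their profiles is not given as a finding.

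The other 2 genes lie on the mitochondrial chromosome, where NCU16016 (39268 to 40941) and NCU16017 (40904 to 42784) share 38 bases. NCU16017 had 3.50, 5.10 and 5.12 CPM at 120 min, 3.41, 9.49 and 18.6 at 240 min, and 8.31, 17.2 and 48.5 at 360 min, and NCU16016 had 15.4, 19.3 and 56.5 at 360 min. Both were highest in 360 min replicate 3, which also had 11.7% of its counts in ribosomal RNA genes, against 2.08 and 2.51% in the other libraries of that stage, and the part of this in their values was not tested. Without 360 min replicate 3 the ratio of NCU16017 was 2.79 in place of 5.39 and that of NCU16016 was 1.36 in place of 2.38. There edgeR no longer called NCU16017 higher from 120 to 360 min (log2 fold change 1.20, adjusted p = 0.063). RNA for all libraries had been selected with oligo(dT) beads.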

How the data were processed

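RNA of *N. crassa* was sequenced in 12 libraries (4 stages, 3 replicates each). The authors trimmed reads, aligned them with HISAT2 (version 2.1.0, from the submitters' processing notes) to version 12 of the OR74A genome, and estimated coverage with StringTie (version 1.3.3b), from which the deposited count of each gene was made. Counts are whole numbers that are not normalized. A second deposited table holds the authors' own relative expression levels between stages and was not used here. The growth temperature is 25°C in the labels and methods, and a table of the study lists another for PDA.

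CPM was the count divided by the library total, and stage means of CPM chose the 255 genes. The choice of genes, of gene lists and of markers was made with earlier results of these data known. The lists were put together from gene symbols of the RefSeq table for assembly NC12, which matched 10590 of 10592 gene IDs and gives a symbol to 1118 genes. Products and sequences were not used here. The test between stages was the quasi-likelihood test of edgeR 4.0.16 in R 4.3.3, with TMM, filterByExpr, 1 mean per stage over all 12 libraries and Benjamini-Hochberg adjustment at 0.05, and it covered 8118 genes. Scripts were tested on simulated data. P-values measure the spread between 3 replicates per stage, each pooled from multiple plates of 1 collection process per the methods of the study. No 2 replicates of the same stage agreed within sampling noise (chi-square per gene at least 15.8). The genes named were the 10 highest at 360 min, the 10 with the largest ratio and at least 1 CPM at 120 min, up to 4 per list, 5 with even steps and a ratio of at least 4, the 4 earliest and 4 latest rises, 3 on each side of each threshold, and the markers. Alternatives used other scalings, levels, ratios and left-out libraries, DESeq2 (version 1.42.0), a test against a 2-fold change, and a replicate block. Figures and means were made with Python 3.11.15, pandas 2.3.3, numpy 2.4.6 and matplotlib 3.10.9.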

Additional observations from a re-analysis of the deposited data

How the results depend on the processing

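The number of genes that met the rule depended on the scaling and on the ratio asked for. In place of 255 it was 143 with TMM sizes, 128 with DESeq2 size factors and 112 with upper-quartile sizes, 896 with a ratio of 1.5 and 80 with a ratio of 3. It was 291 on totals without ribosomal RNA genes, 283 without the 20 most abundant genes, 299 at 2 CPM and 209 at 10 CPM. Leaving out 1 library gave 224 to 299 genes, and leaving out 1 replicate of every stage 215 to 301. A test against a 2-fold change called 119 of the 255 genes higher from 15 to 120 min, 5 from 120 to 240 min, 2 from 240 to 360 min and 74 from 120 to 360 min, in place of 214, 179, 239 and 254. Leaving out 1 library of the compared stages gave 202 to 219, 137 to 165, 228 to 241 and 253 to 255. Shares over all tested genes are given only for the main test, so nothing is read from the counts called under these alternatives.

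Same-numbered libraries did not deviate together in every pair, so that the numbers were not used as pairs: r ran from -0.08 to 0.17 over 18 pairs and was over 0.1 in 3, all between the replicate 1 libraries of 120, 240 and 360 min. With the replicate number as a block 213, 182, 238 and 255 of the 255 genes were called higher. No share over all tested genes is given for this setting, so nothing is read from these counts.

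With upper-quartile sizes 6 of the 255 genes were called lower from 15 to 120 min, and no share over all tested genes is given for this setting. Of 500 comparisons of the log2 fold changes of the named genes from 120 to 360 min with an alternative, 499 kept direction and call, and the exception was NCU16017 without 360 min replicate 3. These genes were chosen for this rise in the same libraries, so that keeping it was nearly fixed in advance and nothing is read from it. The 500 leave out the test against a 2-fold change, which called 74 of the 255 genes. Depth limits values near 0.0582 CPM, which 3 counts give in the shallowest library, such as the 0 of NCU16673 at 15 min and of NCU01212 at 120 min.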
